A study of Mus musculus with 12 samples.

Results

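The proteins that decide which exons of a pre-mRNA are joined include the serine/arginine-rich splicing factors (gene symbols starting with Srsf), the heterogeneous nuclear ribonucleoproteins (Hnrnp) and the SF3A and SF3B subunits of the U2 small nuclear ribonucleoprotein (Sf3a and Sf3b). All genes of the mouse liver tables whose symbol belongs to these families were taken, which gave 37 of 22322 gene symbols: 11 SRSF genes, 18 hnRNP genes, 3 SF3A genes and 5 SF3B genes. They were present as 115 of the 46585 transcript rows. One row stood for each gene, the transcript with the highest mean over the 12 samples, and the other rows were examined separately.

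Liver RNA was sequenced from C57BL/6 mice of 8 weeks in 4 groups of 3 samples: wild-type mice (WT) and mice that lack Bmal1 in the liver (KO), each at circadian time 0 h (CT0) and 12 h (CT12). WT mice were homozygous for a floxed Bmal1 gene (Bmal1 flox/flox), and the KO line was bred from it with mice that express CRE recombinase under a liver-specific promoter. No CRE is stated for WT mice, and the recombinase and the loss of Bmal1 cannot be told apart. Mice were entrained to light and dark and then kept in constant darkness before the livers were taken. The titles and the study's methods number 3 per group while a protocol text in the labels gives fewer mice, so p-values measure the spread between these samples, which may in part be technical.

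SR proteins bind exonic enhancers through RNA recognition motifs and recruit the U1 and U2 particles through their arginine/serine-rich domain, while many hnRNP proteins coat the transcript and act as silencers of nearby splice sites. SF3A and SF3B belong to the U2 particle that recognises the branch point. BMAL1, which is encoded by Arntl and pairs with CLOCK, activates genes with E-box motifs in the circadian clock, and in liver many transcripts rise and fall with the time of day.

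The reads recovered from the values ranged from 1.15e+07 to 1.90e+07 per sample. Replicates of a group correlated with r of 0.979 to 0.989 across genes. The clock gene Arntl was at 15.9 ± 0.370 RPKM in WT at CT0 and 6.37 ± 0.943 RPKM in KO at CT0 (SD, n = 3), and at 1.05 ± 0.320 and 3.99 ± 0.391 RPKM at CT12. This value covers the whole transcript and does not show the deleted exon. All 7 hepatocyte markers were present, and their summed level was 44351 to 49570 RPKM in WT at CT0 against 28635 to 33414 RPKM in KO at CT0, and 37079 to 45460 RPKM against 24753 to 28281 RPKM at CT12. Albumin (Alb) made up most of that sum and was called lower in KO by limma at CT0 (log2 difference -0.93, adjusted p = 0.0045) and CT12 (-1.05, adjusted p = 0.00030), the only 1 of the 7 hepatocyte markers called at either time. The summed cholangiocyte markers were 48.6 to 64.8 RPKM in WT and 93.1 to 152 RPKM in KO at CT0, and 27.2 to 49.97 RPKM and 88.4 to 124 RPKM at CT12. Nearly all of each sum was Spp1, at 46.0 to 61.5 RPKM in WT and 90.7 to 148 RPKM in KO at CT0. At CT12 it was at 26.5 to 47.7 and 87.0 to 121 RPKM. Spp1 was the only 1 of 4 tested that was called, so the sums do not describe the rest of that list. No gene of the macrophage, endothelial, stellate, lymphocyte, blood and proliferation lists was called by limma between genotypes, although at CT12 the stellate sum (94.0 to 110 RPKM in WT, 118 to 153 RPKM in KO) and the blood sum (46.1 to 108 RPKM in WT, 145 to 185 RPKM in KO) did not overlap. Several sums also did not overlap between times. In WT the endothelial (89.3 to 110 RPKM at CT0, 59.0 to 68.9 RPKM at CT12), macrophage (147 to 194 and 91.6 to 140.3 RPKM), stellate (128 to 178 and 94.0 to 110 RPKM) and lymphocyte (6.17 to 6.88 and 3.67 to 5.86 RPKM) sums were all lower at CT12. In KO the hepatocyte (28635 to 33414 RPKM at CT0, 24753 to 28281 RPKM at CT12), stellate (163 to 194 and 118 to 153 RPKM) and lymphocyte (6.22 to 7.26 and 3.75 to 6.04 RPKM) sums were lower at CT12. The blood sum in KO was higher at CT12 (130 to 134 and 145 to 185 RPKM). No listed marker present in the tables was at 0 in every sample, and of the RNA quality list only 1 of 8 genes was present and none could be tested. Their part in the splicing factor values was not tested. In bulk tissue fewer cells of a type and less RNA per cell cannot be told apart.

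Promoters are shown for 3 genes that are described in detail below and whose windows hold a clock motif. RefSeq (GRCm38.p6) gave a promoter window for 34 of the 37 genes, from 250 bases before to 50 bases after the start. The E-box CACGTG, the BMAL1/CLOCK motif, was found in 5 of these 34 genes (14.7%, Hnrnpa3, Hnrnpd, Hnrnpf, Hnrnph2 and Hnrnpm) and in 8.09% of all 27025 genes with a window. The D-box (TTATGTAA or TTACGTAA), read by DBP, was found in 1 gene (2.94%, Hnrnpa2b1) against 1.23% of all genes. The ROR element was also searched and was found in 0 of the 34 genes, against 0.355% of all genes. The heat shock element was found in 2 genes (5.88%, Hnrnpa2b1 and Sf3b2) against 0.662% of all genes, so the Hnrnpa2b1 promoters hold more than a clock motif. The windows of Hnrnpr, Srsf4, Srsf2, Srsf9 and Srsf6, also described below, held none of these motifs. Both strands were searched, and a match is a description of letters in this window. The 100 bases before the start are given 5′ to 3′ on the gene's strand, with the E-box (Hnrnpd and Hnrnpa3) or the D-box (Hnrnpa2b1) in capitals. The windows are chr5:99978939-99979038 on the minus strand for Hnrnpd, chr2:75659159-75659258 on the plus strand for Hnrnpa3, and chr6:51469895-51469994 on the minus strand for Hnrnpa2b1, of which 1 of 2 promoters is shown.
Hnrnpd: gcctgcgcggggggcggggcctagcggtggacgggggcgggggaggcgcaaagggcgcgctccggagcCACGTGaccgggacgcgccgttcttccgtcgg
Hnrnpa3: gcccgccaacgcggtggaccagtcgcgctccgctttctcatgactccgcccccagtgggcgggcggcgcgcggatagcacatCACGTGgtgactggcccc
Hnrnpa2b1: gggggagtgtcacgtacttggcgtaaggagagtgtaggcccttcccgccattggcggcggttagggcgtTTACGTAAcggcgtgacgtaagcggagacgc

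Splicing factor genes were well expressed in liver. RPKM, a read count scaled to transcript length and to library size, allows levels to be compared between genes. The median level was 20.4 RPKM over the 36 genes that passed the filter (1 RPKM or more as the mean of any group) against 6.71 RPKM over all 10799 genes tested. The highest was Hnrnpk (164 RPKM as the mean of all samples), whose product binds cytosine-rich RNA, followed by Srsf5 (119 RPKM), Hnrnpf (86.0 RPKM), Hnrnpa2b1 (79.8 RPKM) and Hnrnpab (46.3 RPKM). The ranges of Hnrnpf (74.4 to 99.0 RPKM) and Hnrnpa2b1 (70.2 to 98.3 RPKM) overlapped, and those of Hnrnpk (142 to 179 RPKM) and Srsf5 (89.7 to 146 RPKM) overlapped only slightly. The lowest gene tested was Sf3b4 at 2.07 RPKM. Srsf12 was not tested: it was listed at 0 in 10 samples, at 0.0638 RPKM in sample 1 of WT at CT0 and at 0.0837 RPKM in sample 1 of KO at CT12. The annotation at hand (GENCODE vM1, NCBIM37) does not hold the kept rows of Hnrnpk and Hnrnpf, and the order above rests on them. The highest annotated row of Hnrnpk was at 99.3 RPKM, below Srsf5, and that of Hnrnpf at 34.3 RPKM, below Hnrnpab.

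**Figure D1:**
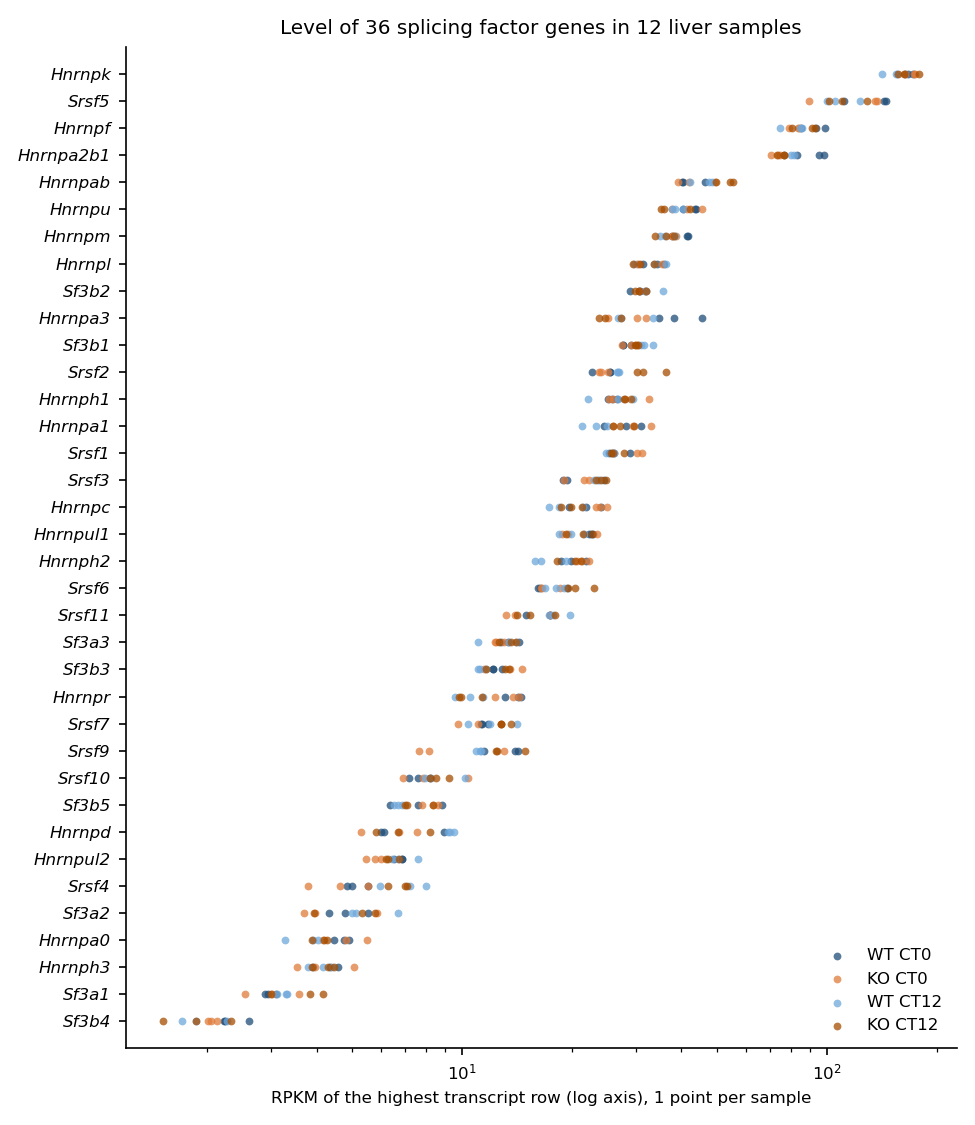
RPKM (log axis) of the 36 splicing factor genes tested, 1 point per sample, coloured by group and ordered by mean level. The 4 groups intermix for most genes, over levels from 2.07 RPKM for Sf3b4 to 164 RPKM for Hnrnpk.

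The first comparison asked whether loss of Bmal1 changed these genes at CT0, the start of the subjective day. No splicing factor gene was called by limma at an adjusted p under 0.05 (0 of 36), where 1.86% of all genes tested were called. At an unadjusted p under 0.05 there were 4 genes, 11.1% of the 36 against 14.2% of all genes, and all 4 (Hnrnpa2b1, Hnrnpa3, Srsf9 and Hnrnpul2) had a lower mean in KO. The log2 differences ran from -0.46 to 0.14 with a median of -0.037, against a median of 0.011 over all genes. The median of the 36 genes was -0.010 without sample 3 of KO at CT0, -0.021 without sample 2 of KO at CT0 and -0.024 without sample 2 of WT at CT0. It was further from 0 with TMM factors and with quantile normalization (-0.052 in both). For 32 of the 36 genes (88.9%) the whole 95% interval of the difference lay within 0.5 on the log2 scale, against 63% of all genes. The intervals that crossed this line belonged to Hnrnpa2b1, Hnrnpa3, Srsf9 and Srsf5. Interval width bears on these shares: the median SE was 0.10 for the 36 genes and 0.13 for all genes. The shares alone therefore do not show that splicing factor genes changed less. Samples of the genotypes did not overlap for 5 genes (Hnrnpa2b1, Hnrnpa3, Hnrnpf, Hnrnpul2 and Sf3b4), all lower in KO, and for 20.6% of all genes.

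Hnrnpa2b1 (chr6:51410433-51419893, NCBIM37, minus strand) had the lowest adjusted p at CT0. Its product binds exonic and intronic silencers and also marks RNA for transport. Its samples were at 98.3, 95.3 and 82.8 RPKM in WT and at 73.4, 74.2 and 70.2 RPKM in KO. All KO samples were below all WT samples. The log2 difference was -0.34 ± 0.079 (SE), with an adjusted p of 0.056, and it passed the threshold without sample 3 of WT at CT0 (-0.41, adjusted p = 0.040) and under quantile normalization (-0.38, adjusted p = 0.037). In 19 of 21 alternatives it did not pass, with a limma adjusted p of up to 0.22 without sample 2 of WT at CT0. At CT12 the samples were at 81.4, 76.3 and 79.7 RPKM in WT and 73.2, 76.4 and 76.3 RPKM in KO, which overlapped, and the log2 difference was -0.071 (adjusted p = 0.64). The difference between these differences was 0.26 ± 0.11 (SE) with an adjusted p of 0.36.

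Hnrnpa3 (chr2:75497318-75507464, NCBIM37, plus strand), a close relative of the silencer protein hnRNP A1, was at 45.6, 38.1 and 34.7 RPKM in WT and 25.1, 30.3 and 31.9 RPKM in KO at CT0. The KO samples were the lower ones without overlap, and the spread within each genotype was wide. The log2 difference was -0.42 ± 0.13 (SE), adjusted p = 0.13, at CT0 and -0.20 ± 0.13 (SE), adjusted p = 0.38, at CT12. The kept row carries a transcript identifier that the annotation places at Hnrnpa1 on chromosome 15, but its value was 1.05 to 1.06 times that of an Hnrnpa3 row on chromosome 2 in every sample and 0.876 to 1.86 times that of Hnrnpa1. Processed pseudogenes are known for Hnrnpa1 and Hnrnpa3, and how reads with several matches were counted is not given in the sources used here.

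Srsf9 (chr5:115777186-115783089, NCBIM37, plus strand), a small SR protein that can act as enhancer or silencer, had the largest difference at CT0. Its WT samples were at 14.3, 11.5 and 13.97 RPKM and its KO samples at 13.0, 8.15 and 7.62 RPKM. Sample 1 of KO lay among the WT samples and the other KO samples lay below all of them. This gave a log2 difference of -0.46 ± 0.16 (SE) with an adjusted p of 0.20. Without that sample, the KO sample closest to WT, it was -0.68 (adjusted p = 0.020). This was the only 1 of 21 alternatives that passed. Over all fits that left out 1 sample the difference ran from -0.68 to -0.33, with a limma adjusted p of up to 0.44. The second row of this gene, of 1162 bases, gave -0.34 (adjusted p = 0.25).

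**Figure D2:**
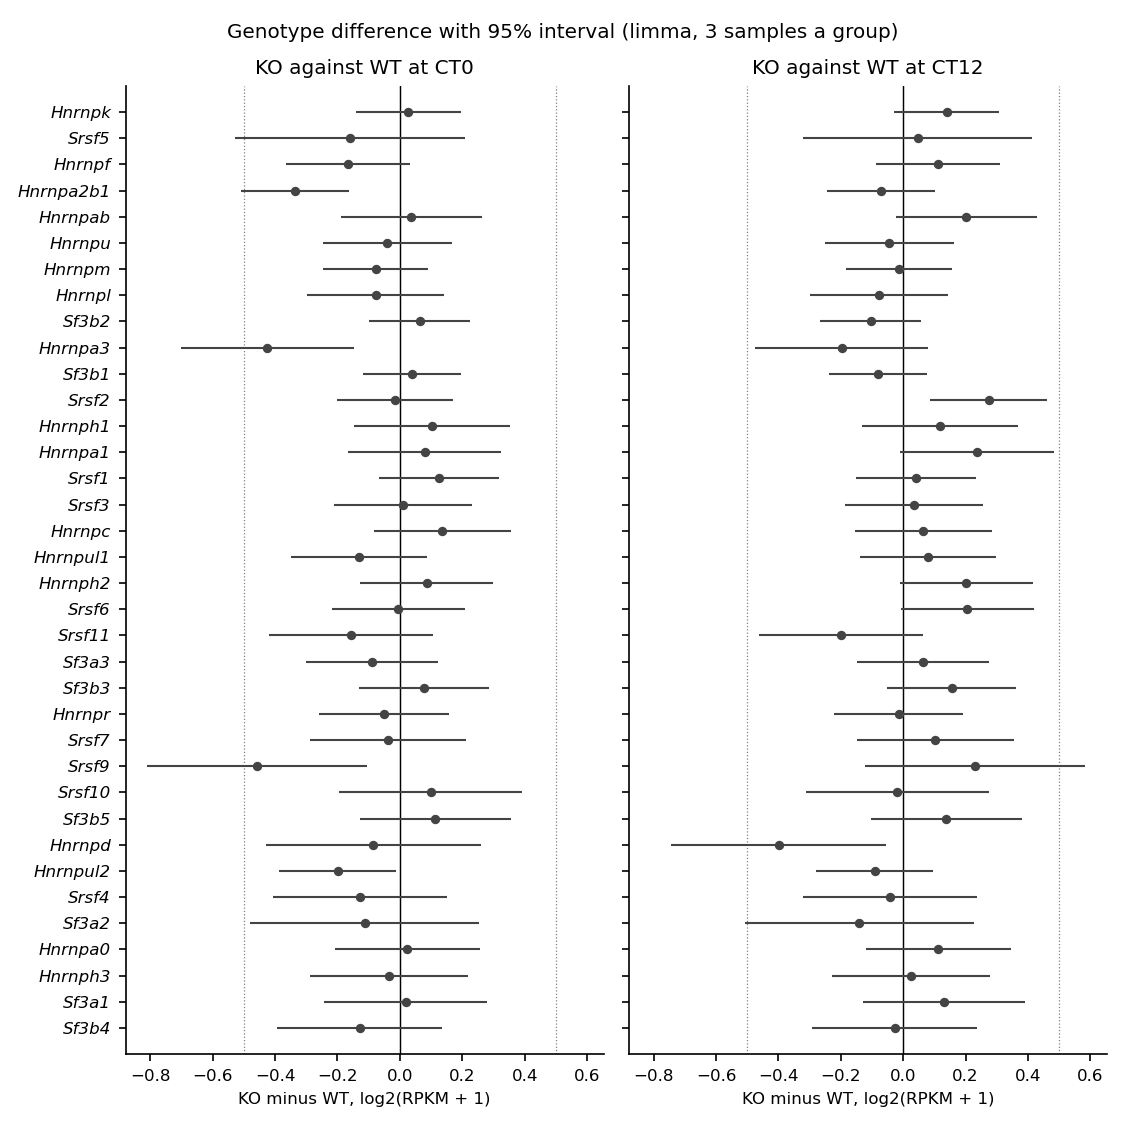
Difference of KO minus WT on the log2(RPKM + 1) scale at CT0 (left) and CT12 (right) for the 36 genes, ordered by level. Points are limma estimates, bars are 95% intervals from 3 samples a group, and dotted lines mark 0.5 in either direction. Intervals lie within the lines for 32 genes at CT0 and 33 at CT12.

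The same comparison at CT12, the start of the subjective night, again called 0 of 36 genes by limma, where 10.5% of all genes were called. Under an unadjusted p of 0.05 there were 2 genes, Srsf2 with a higher and Hnrnpd with a lower mean in KO (5.56% against 24.9% of all genes). The log2 differences ran from -0.40 to 0.27 with a median of 0.044, against 0.080 over all genes, and 33 of 36 intervals (91.7%, against 55% of all genes) lay within 0.5. The genes beyond it were Hnrnpd, Srsf9 and Sf3a2, and the median SE was again 0.10 against 0.13 for all genes. Genotypes did not overlap for 10 genes, 8 higher in KO (Hnrnpa1, Hnrnpab, Hnrnpk, Sf3b3, Sf3b5, Srsf2, Srsf6 and Srsf9) and 2 lower (Hnrnpd and Sf3b1), 27.8% of the 36 against 28.8% of all genes. Scaling bears on direction here: of all called genes, 66.6% were higher in KO, against 45.6% with TMM factors and 52.0% with quantile normalization, and the median of the 36 genes was -0.058 with TMM factors and -0.020 with quantile normalization. It was 0.017 without sample 3 of WT or sample 2 of KO at CT12.

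Srsf2 (chr11:116711215-116714408, NCBIM37, minus strand), which binds exonic enhancers and stays in the nucleus, was at 26.6, 26.9 and 26.7 RPKM in WT and 36.3, 31.4 and 30.2 RPKM in KO at CT12. All KO samples were above the WT samples, and the latter were nearly equal. On the log2 scale the difference was 0.27 ± 0.085 (SE) with an adjusted p of 0.064, and it did not pass under any alternative (0.057 to 0.31, the highest with TMM factors, where the difference was 0.17). At CT0 the samples were at 25.6, 25.6 and 22.8 RPKM in WT and 25.2, 23.7 and 24.1 RPKM in KO, and the log2 difference was -0.016. The kept row shares 293 bases with Mfsd11 on the opposite strand, and strand was not marked by this kind of library kit.

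Srsf6, an SR protein first described as SRp55, was at 16.9, 19.1 and 18.1 RPKM in WT and 23.0, 19.5 and 20.5 RPKM in KO at CT12. The genotypes did not overlap but came close. Its log2 difference was 0.21 ± 0.098 (SE) with an adjusted p of 0.22, and 0.11 (adjusted p = 0.60) with TMM factors.

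Hnrnpd (chr5:100387445-100407957, NCBIM37, minus strand) encodes AUF1, which binds AU-rich elements and changes the stability of mRNAs. The row kept for it, of 493 bases, was at 9.18, 9.25 and 9.53 RPKM in WT and 8.16, 5.82 and 6.68 RPKM in KO at CT12. All KO samples were below the WT samples, and the log2 difference was -0.40 ± 0.16 (SE) with an adjusted p of 0.14. At CT0 the samples overlapped, with 6.01, 8.96 and 6.12 RPKM in WT and 5.31, 7.55 and 6.72 RPKM in KO.

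Of the other transcript rows of Hnrnpd, 3 were called lower in KO at CT12 where the kept row was not. In the fit of all 26512 transcript rows that passed the filter, 10.6% were called in this comparison, and these 3 were the only ones among 113 splicing factor rows. The row of 1537 bases was at 6.70, 7.22 and 5.97 RPKM in WT and 4.78, 4.47 and 4.43 RPKM in KO. Its log2 difference was -0.45 ± 0.11 (SE), adjusted p = 0.024. The row of 1670 bases gave -0.43 (adjusted p = 0.034) and that of 2000 bases gave -0.40 (adjusted p = 0.041). Rows of 1 gene share reads where their exons overlap, so these calls are not independent. The row of 4320 bases (-0.30, adjusted p = 0.082) and that of 483 bases (-0.39, adjusted p = 0.16) did not pass. The gene was also called when its rows were summed (-0.47, adjusted p = 0.026) or averaged (-0.40, adjusted p = 0.029). The calls depended on single samples: the row of 1537 bases was not called without sample 1 or 2 of WT at CT12 or sample 2 or 3 of KO at CT12 (adjusted p up to 0.084). The rows of 1670 and 2000 bases were lost in addition without sample 2 of WT at CT0 or sample 1 of KO at CT12, and the latter also without sample 3 of WT at CT0 (up to 0.12 and 0.13). At CT0 the 3 rows had log2 differences of -0.17 to -0.20 and were not called.

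**Figure D3:**
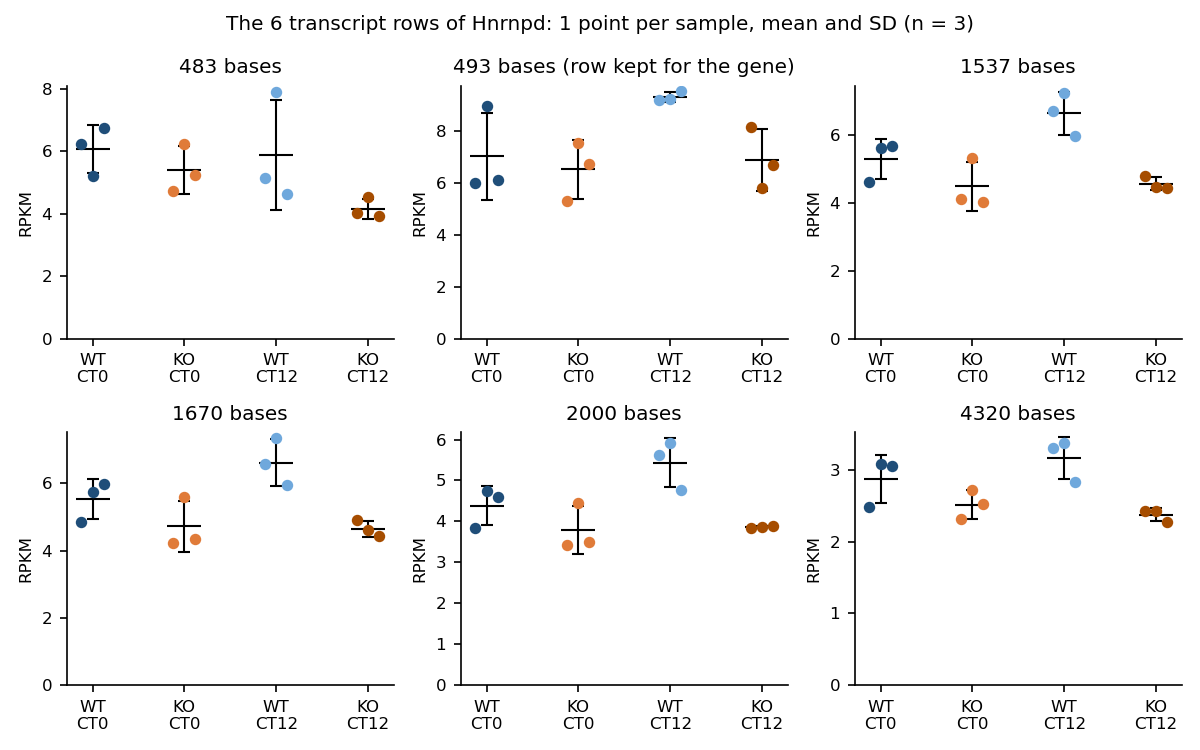
RPKM of the 6 transcript rows of Hnrnpd, ordered by transcript length, with 1 point per sample, the mean as a bar and the SD (n = 3) as error bars, in WT and KO at CT0 and CT12. In all 6 rows every KO sample at CT12 lies below every WT sample at CT12, and the rows of 1537, 1670 and 2000 bases were the ones called.

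The other transcript rows mostly had the sign of the kept row. Of the 115 rows, 98 were in the annotation, 23 genes had more than 1 row and 14 had 1. A row that was called in 1 direction while the kept row pointed in the other, or the reverse, was found for 0 of 77 other rows in every comparison. Such a case needs a called row. Between genotypes 0 rows were called at CT0, 3 at CT12 (all of Hnrnpd) and 0 in the interaction, so the count could show little there. Signs differed for 3 of 77 rows at CT0 and 12 of 77 at CT12, none of them called.

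The interaction, which asks whether the genotype difference was itself different between the times, was called for 0 of 36 genes by limma, against 1.49% of all genes. Under an unadjusted p of 0.05 there were 3 genes (Srsf9, Srsf2 and Hnrnpa2b1), each with a positive value, or 8.33% against 12.3% of all genes. Srsf9 had the largest, 0.69 ± 0.23 (SE) with an adjusted p of 0.22: at CT12 its samples were at 10.9, 11.2 and 11.3 RPKM in WT and at 14.9, 12.4 and 12.5 RPKM in KO, the opposite order to CT0. All KO samples at CT12 were above the WT samples. Without sample 1 of KO at CT0, the KO sample that lay within the WT range, the interaction was 0.91 with an adjusted p of 0.016. This was the only 1 of 20 alternatives that passed, and it removes the KO sample that went against the difference. Over all fits that left out 1 sample the interaction ran from 0.56 to 0.91 (adjusted p up to 0.36). The row of 1162 bases gave 0.63 (adjusted p = 0.13). The interaction of Srsf2 was 0.29 ± 0.12 (SE), adjusted p = 0.35.

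**Figure D4:**
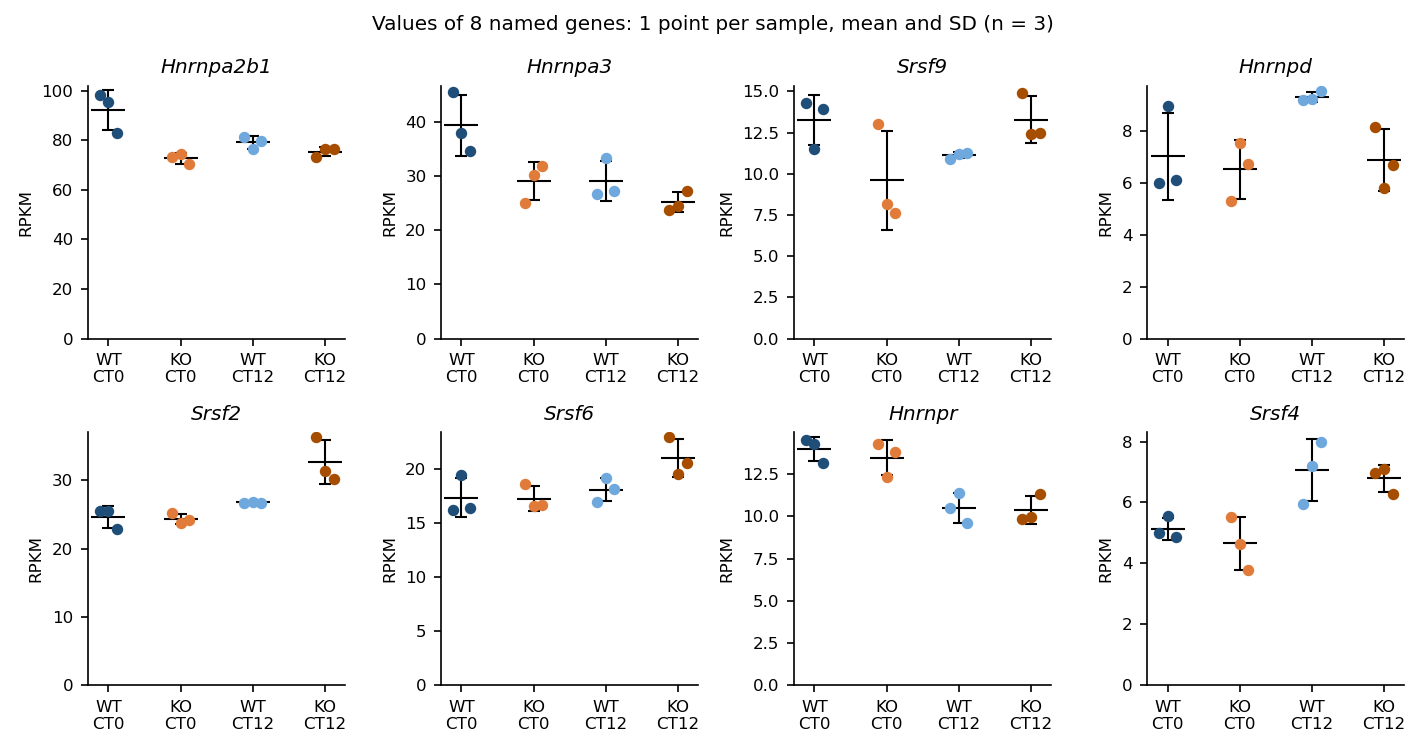
RPKM of 8 splicing factor genes in each group, 1 point per sample, with the mean as a dash and the SD (n = 3) as error bars. Hnrnpa2b1 and Hnrnpa3 are highest in WT at CT0, Srsf2 is highest in KO at CT12, and Hnrnpr and Srsf4 separate by time in both genotypes, Hnrnpr lower and Srsf4 higher at CT12.

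Averaging over both times, a comparison of 6 samples against 6 that was added after the values were seen, called 2 genes of 36, where 11.5% of all genes were called. Both were lower in KO: Hnrnpa2b1 with a log2 difference of -0.20 ± 0.056 (SE), adjusted p = 0.036, and Hnrnpa3 with -0.31 ± 0.090 (SE), adjusted p = 0.044. The unadjusted p was under 0.05 for 3 genes (8.33%, against 25.4% of all genes). Hnrnpa3 was above the threshold with no filter (adjusted p = 0.12). Hnrnpa2b1 stayed under the threshold without sample 3 of WT at CT0, sample 2 of WT at CT12 or sample 1 of KO at CT0, and was above it without any other of the 12 samples (adjusted p up to 0.095). Hnrnpa3 stayed under it without sample 3 of WT at CT0, sample 1 of WT at CT12, sample 3 of KO at CT0 or sample 3 of KO at CT12, and was above it without any other (up to 0.097). Among transcript rows 11% of all rows were called, and 11 rows of 3 splicing factor genes were among them, namely 3 rows of Hnrnpa2b1, 5 of Hnrnpa3 and 3 of Hnrnpd. All of them were lower in KO, and on leaving out a sample the rows of Hnrnpa2b1 were called in 1 to 3, those of Hnrnpa3 in 3 to 6 and those of Hnrnpd in 3 to 8 of the 12 fits.

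The comparison of times within a genotype, which uses the same 12 samples, asks which genes differed between CT0 and CT12. In WT, 1 of 36 genes was called where 11.6% of all genes were, and 9 genes (25.0%, against 26.9% of all genes) had an unadjusted p under 0.05. This gene was Hnrnpr (chr4:135866857-135896596, NCBIM37, plus strand), whose product is a close relative of SYNCRIP. It was at 14.5, 14.3 and 13.2 RPKM at CT0 and at 10.5, 11.4 and 9.59 RPKM at CT12. All CT12 samples were lower. The log2 difference was -0.38 ± 0.095 (SE) with an adjusted p of 0.024. It was above the threshold without sample 1 or 2 of WT at CT0 or sample 1 or 3 of WT at CT12 (adjusted p up to 0.094) and with TMM factors (0.051). With TMM factors 3 other genes were called instead, Srsf4, Sf3b1 and Sf3b2, each higher at CT12, and with quantile normalization Hnrnpr and Srsf4 were called. Of all called genes, 32.0% were higher at CT12, against 57.1% with TMM factors and 49.9% with quantile normalization. In the fit of transcript rows, where 12.4% of rows were called, 4 splicing factor rows were called, 1 of Hnrnpr, 2 of Hnrnpa3 and 1 of Hnrnpm. The Hnrnpa3 rows were called in 3 and 5 of the 12 fits that left out a sample, and the gene itself was not called (adjusted p = 0.052). The Hnrnpm row, of 634 bases, fell by 0.32 on the log2 scale (adjusted p = 0.039), while the kept row of this gene had a log2 difference of -0.14. It was not called without any 1 of the 6 WT samples, sample 2 or 3 of KO at CT0 or sample 2 of KO at CT12.

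In KO, 1 of 36 genes was called between times where 2.43% of all genes were, and 7 genes (19.4%, against 19.9% of all genes) had an unadjusted p under 0.05. Srsf2 was higher at CT12 with the values given above, by 0.41 ± 0.085 (SE) on the log2 scale, adjusted p = 0.033. It was above the threshold without sample 2 of WT at CT0, any 1 of the 3 KO samples at CT0, or sample 1 or 2 of KO at CT12 (adjusted p up to 0.10), and also with no filter (0.061) or when only the 6 KO samples were fitted (0.13). Srsf9 was called in place of Srsf2 without sample 1 of KO at CT0, with a log2 difference of 0.68 (adjusted p = 0.017). That is the same omission as for Srsf9 above, so it adds no separate evidence. The time difference of Srsf2 in WT was 0.12 ± 0.085 (SE) and was not called, and the difference between genotypes is the interaction given above.

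Both genotypes together, 6 samples at each time and also added after the values were seen, gave 4 called genes of 36, where 16.6% of all genes were called, and 11 genes (30.6%, against 31.9% of all genes) with an unadjusted p under 0.05. Hnrnpr had a log2 difference of -0.37 ± 0.067 (SE), adjusted p = 0.0044, and its KO samples were at 14.3, 12.3 and 13.8 RPKM at CT0 and 9.84, 9.94 and 11.4 RPKM at CT12. In each genotype all CT12 samples were below all CT0 samples. Srsf4 (chr4:131429532-131457640, NCBIM37, plus strand), an SR protein known as SRp75, was at 4.99, 5.54 and 4.85 RPKM in WT and 5.53, 4.64 and 3.79 RPKM in KO at CT0, and at 5.96, 7.21 and 7.99 RPKM in WT and 6.97, 7.09 and 6.29 RPKM in KO at CT12. All 6 samples at CT12 were above all 6 samples at CT0. Its log2 difference was 0.43 ± 0.091 (SE), adjusted p = 0.0086. The kept Srsf4 row shares 1532 of its 2257 bases with Gm12992, annotated on the opposite strand, so reads of the pair cannot be told apart.

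Srsf2 was the third gene, with 0.26 ± 0.060 (SE) and an adjusted p of 0.013. Hnrnpr, Srsf4 and Srsf2 were called in the same direction under all 20 alternatives fitted for this comparison, while none reached a minimum difference of 0.5. Hnrnpa3, with -0.31 ± 0.090 (SE) and an adjusted p of 0.037, was called in 4 of the 12 fits that left out a sample, those without sample 3 of WT at CT0, sample 2 of WT at CT12, sample 1 of KO at CT0 or sample 3 of KO at CT12 (adjusted p up to 0.083). It was also lost with no filter (0.096), quantile normalization (0.058) and TMM factors (0.085). In the transcript fit 17.5% of all rows were called, and 13 rows of Hnrnpa3, Hnrnpc, Hnrnpr, Srsf2 and Srsf4 were among them. The 2 Hnrnpc rows were called in 2 and the 5 Hnrnpa3 rows in 4 to 6 of the 12 fits that left out a sample, and Hnrnpc as a gene was not called (adjusted p = 0.052).

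By family, 14 of 18 hnRNP genes had a lower mean at CT12 and 8 of 10 SRSF genes a higher one, in the average of both genotypes. Of all 10799 genes, 6128 were lower and 4671 higher. The medians were -0.089 for hnRNP and 0.13 for SRSF genes on the log2 scale, against -0.034 over all genes. With quantile normalization 13 hnRNP genes were negative (median -0.050) and 8 SRSF genes positive (0.15), against a median of 0.0078 over all genes. With TMM factors the counts were 11 (-0.025) and 8 (0.19), against 0.021 over all genes. Most of these genes did not pass the test: 2 were called in each family. The 3 SF3A genes had differences of 0.0078 to 0.15 and the 5 SF3B genes of -0.14 to 0.12, and none was called. The hnRNP pattern was that of WT, where 14 of 18 genes were lower at CT12 (median -0.16), against 10 of 18 in KO (median -0.035). SRSF genes were higher for 7 of 10 in WT (median 0.093) and 8 of 10 in KO (0.20). Of all 10799 genes, 6606 were lower in WT and 5432 in KO. In the separate genotypes, which share no sample, the sign of the time difference was the same for 29 of the 36 genes (80.6%) and for 64.9% of all genes.

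**Figure D5:**
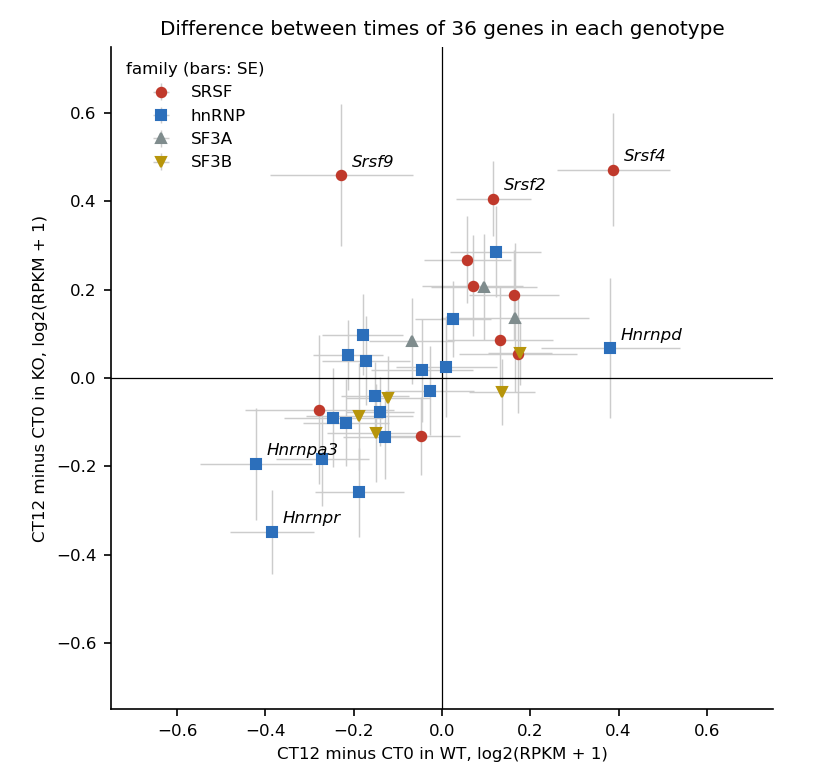
Difference of CT12 minus CT0 on the log2(RPKM + 1) scale in WT (horizontal) and in KO (vertical) for 36 genes, marked by family, with SE bars. Hnrnpr lies at -0.38 and -0.35, Srsf4 at 0.39 and 0.47, and Srsf9 at -0.23 and 0.46, the only labelled gene in the upper left.

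For the rest of the splicing machinery, a list of 98 named genes was used, covering other particle proteins, kinases of SR proteins, SR-related proteins, hnRNP-like proteins with other symbols and exon junction factors. Of these, 97 were in the tables and were tested. Between genotypes limma called 0 at CT0, where 1.86% of all genes were called (10 genes had an unadjusted p under 0.05), and 1 at CT12, where 10.5% were. This was Tia1, a U-rich RNA-binding protein that promotes weak 5′ splice sites, at 2.94, 2.07 and 4.17 RPKM in WT and 6.07, 4.87 and 5.34 RPKM in KO. All KO samples were higher, the log2 difference was 0.69 ± 0.17 (SE), and the adjusted p was 0.024. It was above the threshold with quantile normalization (0.059), TMM factors (0.057), no filter (0.093) or only the samples compared (0.065), and without sample 1 or 2 of WT at CT12 or sample 1 or 3 of KO at CT12 (up to 0.077). Over both times Raly (0.25, adjusted p = 0.031) and the SR protein kinase gene Srpk1 (0.26, adjusted p = 0.043) were called higher in KO, where 11.5% of all genes were called, but not in 9 and 11 of the 12 fits that left out a sample.

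Between times in WT, 9 of the 97 were called, 3 higher and 6 lower at CT12, where 11.6% of all genes were called. In KO limma called 0, where 2.43% of all genes were called, and 14 had an unadjusted p under 0.05. The interaction was called by limma for 0 of the 97, against 1.49% of all genes, and 9 had an unadjusted p under 0.05. A call in WT without a call in KO therefore does not show a difference between genotypes. The DEAD-box helicase gene Ddx17 was at 36.1, 37.1 and 32.3 RPKM at CT0 and 21.1, 24.6 and 20.2 RPKM at CT12 in WT (log2 difference -0.66, adjusted p = 0.0013). In KO it was at 27.9, 31.5 and 33.0 RPKM and at 25.8, 27.1 and 25.5 RPKM (-0.23, adjusted p = 0.22). Tardbp, which encodes TDP-43, had a log2 difference of -0.57 in WT (adjusted p = 0.0062), and Esrp2, an epithelial splicing regulator, of -0.41 (adjusted p = 0.015). Dhx9 (0.38, adjusted p = 0.0093) and Rbm25 (0.42, adjusted p = 0.0081) were higher, and the U1 particle genes Snrpa (-0.52, adjusted p = 0.037) and Snrpc (-0.37, adjusted p = 0.034) were lower. Ddx17, Tardbp, Dhx9 and Rbm25 were called in all 12 fits that left out a sample. Esrp2 was lost without sample 2 of WT at CT0 or sample 3 of WT at CT12 (adjusted p up to 0.057), Snrpa without any 1 WT sample other than sample 2 at CT0 (0.13), and Snrpc without any 1 of the 6 WT samples (0.10). Over both genotypes 8 of the 97 were called, where 16.6% of all genes were, among them Ddx17, Tardbp, Esrp2 and Snrpa lower at CT12 and Dhx9, Rbm25 and Hnrpdl higher. Hnrpdl passed in 2 of the 12 fits that left out a sample, and the other 6 genes named here passed in all 12.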

How the data were processed

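Mouse liver RNA of 12 samples was sequenced from libraries made with the TruSeq RNA kit. The authors deposited RPKM per transcript for each sample, unpooled. The submitters' processing notes name TopHat2, bedtools 2.19.1 and mm9, with no roles; the annotation release is not given in the sources used here. RPKM times transcript length took whole multiples of a step for 94.8% to 95.7% of low values (tolerance 0.02 of a read), which gave the depth. Groups came from sample titles.

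One row per symbol was kept, that with the highest mean. Values were analysed as log2(RPKM + 1), which understates changes of low genes. Genes whose mean reached 1 RPKM in any group were fitted with limma 3.58.1 in R 4.3.3 (4 group means, trend), with Benjamini-Hochberg adjustment over 10799 genes and a threshold of 0.05. The fit was also run on simulated data with independent noise and changes only in KO at CT12. No scaling shift was simulated, so that run does not bear on the scaling differences reported here. Alternatives were a pseudocount of 0.1, other filters, quantile and TMM scaling, summed or averaged rows, a replicate block, only the samples compared, a difference of at least 0.5 and leaving out each sample; leaving out samples in the transcript fit was added after seeing the data. Genes named were those called, up to a set number, or the 3 with the lowest adjusted p where none was, the 5 highest, and untested ones; the other unadjusted, non-overlapping and lost genes were named after their values were seen. The members and lists were chosen with earlier results of these data known. Tables were joined with pandas 2.3.3 under Python 3.11.15 and drawn with matplotlib 3.10.9. One gene of the list of other splicing genes is not reported here by name.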

Additional observations from a re-analysis of the deposited data

How the results depend on the processing

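No member passed between genotypes at CT0 in 19 of 22 alternatives, but 1 did with quantile normalization, and leaving out 1 sample gave 0 to 1 gene. At CT12, 20 of 22 alternatives gave 0 and 1 gene (Hnrnpd) passed with summed or averaged transcript rows; the median of the members moved from 0.044 to -0.058 with TMM factors. The interaction gave 0 to 1 gene on leaving out a sample. In WT the time comparison gave 2 genes with quantile normalization, 3 with TMM factors, 0 at a log2 difference of at least 0.5 and 0 to 3 on leaving out a sample. In KO it gave 0 with no filter, 2 with quantile normalization, 0 with only the samples compared, 0 at a difference of at least 0.5 and 0 to 1 on leaving out a sample. Averaged over times, the genotype comparison gave 1 with no filter, 0 at a difference of at least 0.5 and 0 to 2 on leaving out a sample. Averaged over genotypes, the time comparison gave 7 with TMM factors, 0 at a difference of at least 0.5 and 3 to 6 on leaving out a sample. Transcript rows of members called at CT12 numbered 0 to 3, and at CT0 0 to 2, on leaving out a sample. Of the other splicing genes 0 passed at CT12 with quantile normalization. The cause of these changes was not tested, other than by the alternatives' own construction.

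Same-numbered samples of different groups did not deviate together (mean r of 0.00825 over 18 pairs, -0.0665 to 0.139), so the numbers pair nothing. In a fit with replicate number as block, 0 members were called over both times between genotypes (adjusted p = 0.053 for Hnrnpa2b1 and 0.068 for Hnrnpa3), and the counts of the other comparisons stayed within 1.5 times, but over both genotypes Hnrnpa3 was not called between times under the block (0.056) and Hnrnpab was. Scaling moved the share of all called genes that were higher in KO over both times from 64.9% to 47.9% (TMM) and 52.4% (quantile), of those higher at CT12 over both genotypes from 36.7% to 55.5% and 49.9%, and of positive interactions from 72.0% to 55.8% and 59.7%. The median SE of a member's difference between groups of 3 was 0.10 on the log2 scale, which limits what these samples can show.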
